A study of Mus musculus with 40 samples.

Results

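The 5 genes that serve the uptake and use of glucose or the response to low oxygen are described here in mouse bone marrow before and after cyclophosphamide. They are Slc2a1, Egln3, Ero1a, Aldoa and Pgam1, taken by gene symbol, and they are 5 of the 13027 genes and unnamed probes of the array and of its 9616 genes with a symbol. Each has 1 probe. Marrow cells of DBA/2 mice, an inbred strain, were compared in 4 groups of 5 mice. Of these, 1 group was untreated (control), and the others had received 83 mg/kg of cyclophosphamide into the peritoneal cavity 1, 2 or 5 days before the marrow was taken. Cyclophosphamide is a drug whose active products cross-link DNA and damage dividing cells. The labels give neither age nor sex of the mice, and no group carried an engineered allele. Each mouse was measured on 2 arrays against a common reference pool, described in one label as marrow of untreated mice and in another as treated with the drug. The pool is the same for all mice and cancels in every difference between groups.

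Glucose enters most blood cells through transporters of the SLC2A family and is broken down in the cytosol by glycolysis, which yields ATP without oxygen. When oxygen is scarce, the hypoxia-inducible transcription factors (HIF) are no longer hydroxylated and destroyed, and they raise the transcription of glucose transporters, glycolytic enzymes and their own hydroxylases. Parts of the marrow are poor in oxygen, and its stem cells are known to rely on glycolysis. Slc2a1 encodes the glucose transporter GLUT1. Aldoa encodes aldolase A, which splits fructose bisphosphate, and Pgam1 encodes phosphoglycerate mutase, a later step of the same pathway. Egln3 encodes PHD3, an oxygen-dependent prolyl hydroxylase that marks HIF alpha subunits for destruction. Ero1a encodes an oxidase of the endoplasmic reticulum that recharges protein disulfide isomerase at the expense of oxygen. All of these genes are known from cultured cells to respond to HIF.

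Values are log2 ratios of a mouse to the pool, with the 2 arrays of the mouse averaged, and base 2 is assumed for the deposited ratios. Differences between groups are log2 differences ± standard error (SE) from limma, fitted over all 20 mice and 5297 genes and unnamed probes with at least 3 measured mice in every group. Adjusted p values are Benjamini-Hochberg values over all of these, and a gene is said to have risen or fallen where the adjusted p was under 0.05. Between 4079 and 7977 of the 13443 probes had a value on any 1 array, and the 2 arrays of a mouse correlated at 0.683 to 0.957 over probes. All 5 genes passed the filter, and all had a value in every mouse and on both of its arrays, except for Egln3 on 1 array of control mouse 1. One mouse stood apart from its group in what follows. Day 5 mouse 4 had a mean of -1.41 over the 6 erythroid markers measured in every mouse, where the median day 5 mouse was at -0.28. Results of the 5 genes that rest on it are also given without it, while those of other genes are given with it.

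On day 1 after the drug, Slc2a1 and Egln3 had risen while Ero1a and Pgam1 had fallen, so that 4 of the 5 genes changed, against 19.1% of all genes and probes tested (10.7% higher and 8.38% lower). On day 2, Slc2a1 and Egln3 were still higher and Ero1a lower, 3 of 5 genes against 19.2% of all (9.61% higher and 9.61% lower). On day 5 none of the 5 differed from control by limma, where 2.62% of all did (0.906% higher and 1.72% lower), although Aldoa had an unadjusted p of 0.00858 and an exact permutation p of 0.0397. From day 2 to day 5, 4 of the 5 changed, against 20.8% of all (10.3% higher and 10.5% lower). Slc2a1 and Egln3 fell, and Ero1a and Aldoa rose. Between day 1 and day 2 none was called by limma, where 2.1% of all were (1.36% higher and 0.736% lower), although Pgam1 had an unadjusted p of 0.00325. By the moderated F test over the 4 groups all 5 genes differed, as did 30.7% of all. The mice of the 2 groups did not overlap for 1 gene of 5 on day 1, 3 on day 2 and 0 on day 5 against control, where 13%, 19% and 6.34% of all genes and probes did so. They did not overlap for 1 gene between day 1 and day 2 (4.34% of all) and for 4 between day 2 and day 5 (18.9% of all). These shares include genes and probes with 3 or 4 mice in a group, which separate more easily, whereas the 5 genes had 5 mice in each. The 5 genes were chosen with earlier results of these data known. Their counts beside the shares of all are thus a description and not a test of the set. They moved in both directions. Their median difference from control was -0.24, 0.019 and 0.17 for days 1, 2 and 5, and the median over all features tested was -0.015, -0.022 and 0.0078. In whole marrow, a lower value can mean fewer cells of a type or less of the transcript per cell, and these cannot be told apart.

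**Figure D1:**
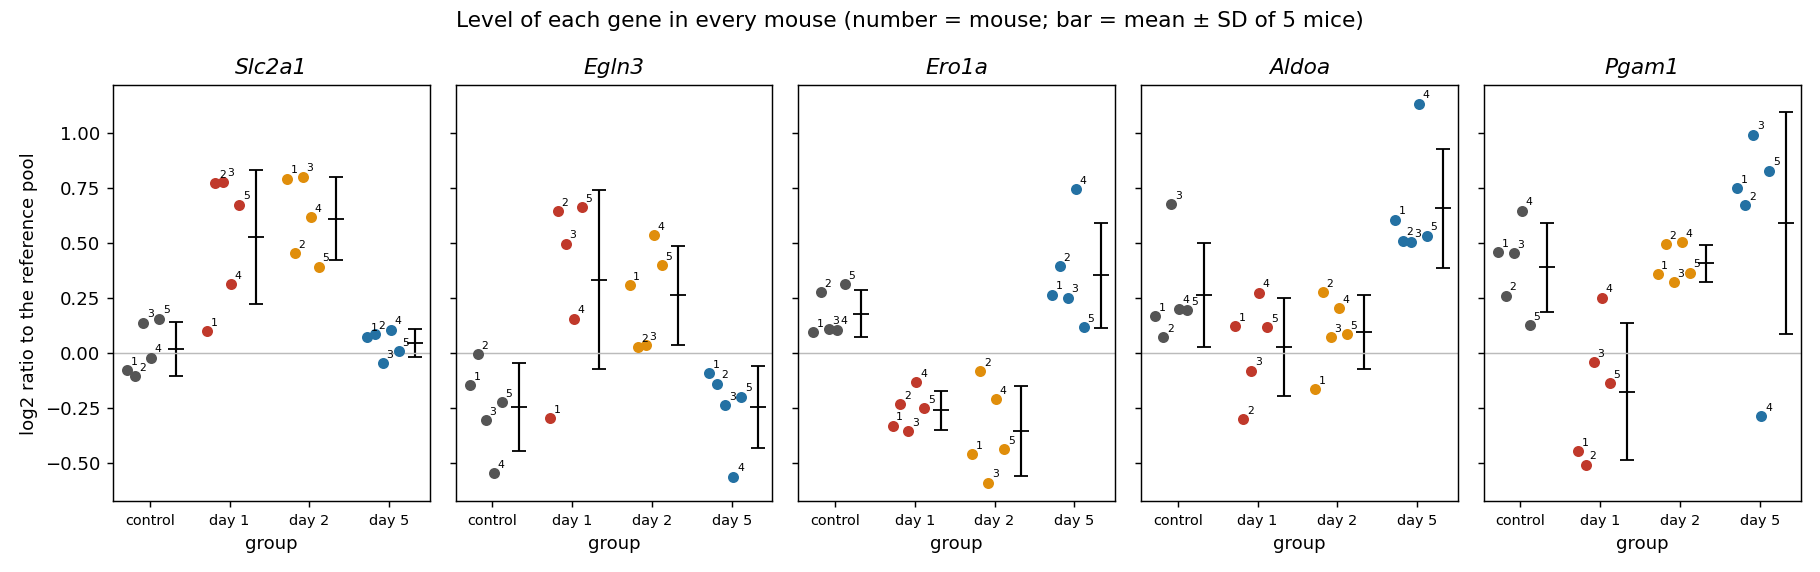
Level of each gene in every mouse, as the log2 ratio to the reference pool, by group. Points are mice with their numbers, and the bar beside them is the mean ± SD of 5 mice. Slc2a1 and Egln3 are high on days 1 and 2, Ero1a is low on both days, Pgam1 is low on day 1, and day 5 mouse 4 lies apart for Aldoa and Pgam1.

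The glucose transporter gene Slc2a1 stood at -0.077, -0.11, 0.14, -0.021 and 0.16 in control mice 1 to 5. On day 1 the mice were at 0.10, 0.77, 0.78, 0.31 and 0.67, and on day 2 at 0.79, 0.45, 0.80, 0.62 and 0.39. On day 5 they were at 0.074, 0.086, -0.046, 0.11 and 0.0092. Every day 2 mouse was thus above every control and every day 5 mouse, while on day 1 a single mouse, number 1, lay among the controls. Slc2a1 was higher than control by 0.51 ± 0.12 on day 1 (1.42-fold, adjusted p = 0.00653 by limma, 5 of 5 mice above the control mean) and by 0.59 ± 0.12 on day 2 (1.51-fold, adjusted p = 0.00197, 5 of 5 mice). From day 2 to day 5 it fell by 0.57 ± 0.12 log2 units (adjusted p = 0.00186). On day 5 the difference from control was 0.028 ± 0.12 (adjusted p = 0.975). In order, the group means were 0.018 (control), 0.046 (day 5), 0.53 (day 1) and 0.61 (day 2). Day 5 was not separated from control, nor day 2 from day 1 (0.084 ± 0.12, adjusted p = 0.881). An exact two-sided permutation test over mice gave p = 0.0238 on day 1 and p = 0.00794 on day 2, the latter being the smallest p that 5 mice against 5 allow.

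The hydroxylase gene Egln3 was called in the same comparisons and directions as Slc2a1. Control mice 1 to 5 were at -0.15, -0.0047, -0.31, -0.54 and -0.22. The day 1 mice were at -0.30, 0.65, 0.50, 0.16 and 0.66, and the day 2 mice at 0.31, 0.027, 0.036, 0.54 and 0.40. The day 5 mice were at -0.091, -0.14, -0.24, -0.56 and -0.20. All day 2 mice lay above all control and all day 5 mice, but by little, since day 2 mice 2 and 3 were close to control mouse 2. Day 1 mouse 1, low for Slc2a1 as well, was below the control mean. Egln3 was higher than control by 0.58 ± 0.16 on day 1 (1.49-fold, adjusted p = 0.0133 by limma, 4 of 5 mice) and by 0.51 ± 0.16 on day 2 (1.42-fold, adjusted p = 0.0263, 5 of 5 mice). It fell by 0.51 ± 0.16 on the log2 scale from day 2 to day 5 (adjusted p = 0.0228) and then differed from control by -0.00026 ± 0.16. Without day 1 mouse 1 the day 1 rise was 0.74 (adjusted p = 0.000834). The day 2 call was lost without control mouse 3 or 4 or day 2 mouse 1 or 4, with adjusted p between 0.0526 and 0.0725. The fall to day 5 was lost without day 2 mouse 4 (-0.44, adjusted p = 0.0597) or day 5 mouse 4 (-0.43, adjusted p = 0.0697).

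The oxidase gene Ero1a moved the other way. Its values were 0.094, 0.28, 0.11, 0.11 and 0.31 in control mice 1 to 5 and -0.33, -0.23, -0.35, -0.13 and -0.25 on day 1. They were -0.46, -0.081, -0.59, -0.21 and -0.44 on day 2 and 0.27, 0.39, 0.25, 0.74 and 0.12 on day 5. All 10 mice of days 1 and 2 lay below all 10 mice of control and day 5. Among the 5 genes Ero1a alone separated control from day 1 without overlap. It fell by 0.44 ± 0.11 on the log2 scale on day 1 (1.36-fold lower, adjusted p = 0.0104 by limma) and by 0.53 ± 0.11 on day 2 (1.45-fold lower, adjusted p = 0.00249). From day 2 to day 5 it rose by 0.71 ± 0.11 (1.64-fold, adjusted p = 0.000108, 5 of 5 mice), and 0.61 without day 5 mouse 4 (adjusted p = 0.000334). On day 5 it stood 0.17 ± 0.11 from control (adjusted p = 0.677). The exact permutation p was 0.00794, the smallest possible, on day 1, on day 2 and from day 2 to day 5.

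The promoters of the 3 genes that changed on both early days are shown here, since the core of the hypoxia response element, the letters bound by HIF, is short enough to look up. Each window runs from 250 bases before to 50 bases after the RefSeq start on build GRCm38.p6, in the direction of transcription, and capitals mark each match to ACGTG or GCGTG on either strand. On the reverse strand the motifs read CACGT and CACGC.
Slc2a1, chr4:119108495-119108794, plus strand: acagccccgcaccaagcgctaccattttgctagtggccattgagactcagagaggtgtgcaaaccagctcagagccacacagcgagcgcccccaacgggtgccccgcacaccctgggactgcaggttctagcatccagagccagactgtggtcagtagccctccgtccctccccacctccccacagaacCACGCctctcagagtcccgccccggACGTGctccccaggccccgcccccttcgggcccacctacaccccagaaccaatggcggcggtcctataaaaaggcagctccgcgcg
Egln3, chr12:54203825-54204124, minus strand: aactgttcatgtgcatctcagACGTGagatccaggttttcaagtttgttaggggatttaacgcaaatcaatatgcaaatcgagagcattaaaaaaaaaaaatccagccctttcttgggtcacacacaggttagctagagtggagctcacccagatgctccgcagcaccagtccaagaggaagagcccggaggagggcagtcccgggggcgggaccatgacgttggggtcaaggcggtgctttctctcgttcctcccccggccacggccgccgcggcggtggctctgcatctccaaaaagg
Ero1a, chr14:45318523-45318822, minus strand: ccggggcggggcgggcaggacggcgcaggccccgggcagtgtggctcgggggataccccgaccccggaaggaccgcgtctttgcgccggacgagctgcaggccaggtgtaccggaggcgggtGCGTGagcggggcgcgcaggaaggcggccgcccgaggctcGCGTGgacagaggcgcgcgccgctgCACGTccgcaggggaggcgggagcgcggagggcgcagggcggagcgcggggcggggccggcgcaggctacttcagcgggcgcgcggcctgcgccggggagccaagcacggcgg
The Slc2a1 window held GCGTG on the reverse strand 61 bases before the start and ACGTG 36 bases before it. The Egln3 window held a single match, ACGTG 229 bases before the start. The Ero1a window held GCGTG at 128 and 88 bases and ACGTG on the reverse strand at 63 bases before the start. All 5 genes were found in the RefSeq promoter table, with 7 windows in all, 3 of them for Aldoa. Pgam1 held GCGTG at 175, ACGTG at 114 and GCGTG on the reverse strand at 88 bases before its start. The 2 overlapping Aldoa windows held the same ACGTG on the reverse strand and the other had no match. Of the 32851 windows of the table, 19.6% held ACGTG, 32.4% GCGTG and 43.8% either, and 8.93% held at least 3 matches. The 3 windows shown differ in base composition, with 65.3% G and C for Slc2a1, 54.7% for Egln3 and 80.3% for Ero1a. On day 1 Slc2a1 and Egln3, with 2 and 1 matches, had risen, and Ero1a and Pgam1, with 3 each, had fallen. Aldoa, with 1 match in each of its 2 overlapping windows, was not called that day (adjusted p = 0.242 by limma). Whether matches go with direction was not tested. A match is a run of letters and not a measured site. Bases outside the windows were not searched, and binding by HIF was not tested.

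The glycolytic enzyme gene Aldoa did not differ from control on any day by the adjusted test, but its mice of day 5 were above those of day 2. Control mice 1 to 5 were at 0.17, 0.073, 0.68, 0.20 and 0.20. The day 1 mice were at 0.12, -0.30, -0.079, 0.27 and 0.12, and the day 2 mice at -0.16, 0.28, 0.073, 0.20 and 0.086. The day 5 mice were at 0.61, 0.51, 0.50, 1.13 and 0.53. No mouse of days 1 or 2 reached the lowest mouse of day 5, while control mouse 3 did. Aldoa rose by 0.56 ± 0.14 from day 2 to day 5 (1.48-fold, adjusted p = 0.00486 by limma, 5 of 5 mice), and by 0.44 without day 5 mouse 4 (adjusted p = 0.0184). Against control it was at -0.24 ± 0.14 on day 1 (adjusted p = 0.242), -0.17 ± 0.14 on day 2 (adjusted p = 0.434) and 0.39 ± 0.14 on day 5 (adjusted p = 0.169). The day 5 difference was 0.28 without day 5 mouse 4 (adjusted p = 0.492) and 0.50 without control mouse 3 (adjusted p = 0.0542).

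The mutase gene Pgam1 was low on day 1 and at the control level on day 2. Its values were 0.46, 0.26, 0.45, 0.65 and 0.13 in control mice 1 to 5 and -0.45, -0.51, -0.041, 0.25 and -0.14 on day 1. They were 0.36, 0.50, 0.32, 0.50 and 0.36 on day 2 and 0.75, 0.67, 0.99, -0.29 and 0.83 on day 5. On day 1 the highest mouse, number 4, overlapped with the controls, and the other 4 lay below all of them. Day 2 mice were close together, with an SD of 0.084, and all lay above all day 1 mice. Pgam1 fell by 0.57 ± 0.18 on the log2 scale on day 1 (1.48-fold lower, adjusted p = 0.03 by limma, 5 of 5 mice below the control mean). The day 1 call was lost without any 1 of control mice 1, 3 and 4 or day 1 mice 1, 2 and 5, with differences between -0.58 and -0.48 and adjusted p up to 0.088. From day 1 to day 2 the difference was 0.58 ± 0.18 and did not pass over all genes (adjusted p = 0.0872), so a return by day 2 was not established by that test. It passed when day 5 mouse 4 was left out of the shared estimate of spread (adjusted p = 0.0101), and the exact permutation p was 0.00794. From day 2 to day 5 the difference was 0.18 ± 0.18 (adjusted p = 0.512) with day 5 mouse 4 and 0.40 without it (adjusted p = 0.0396). On day 5 it was 0.20 ± 0.18 above control (adjusted p = 0.832), and 0.42 without that mouse (adjusted p = 0.138). One array of day 1 mouse 5 gave Pgam1 a value shared to within 0.001 by many probes of that array, as spots at the scanner's limit would. Leaving it out changed no call of Pgam1.

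**Figure D2:**
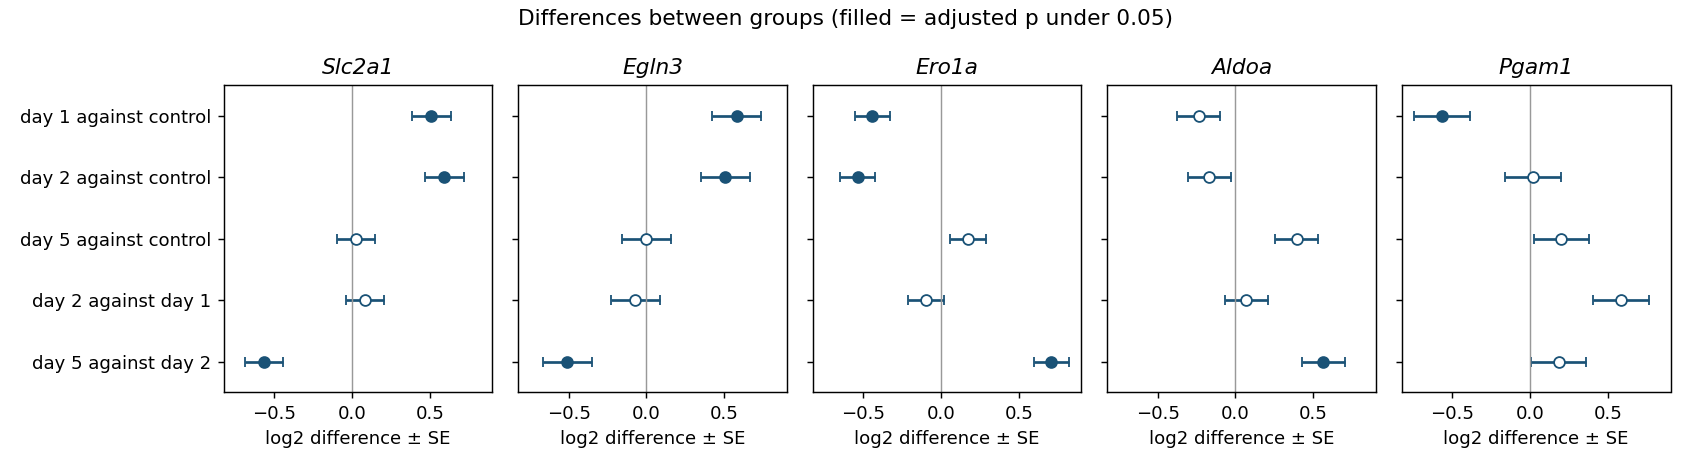
Log2 differences between groups for the 5 genes, with bars of 1 SE from limma; filled circles passed an adjusted p of 0.05. Slc2a1 and Egln3 lie to the right on days 1 and 2 and to the left from day 2 to day 5, Ero1a lies on the opposite side in all 3, and all 5 circles of day 5 against control are open.

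The 2 arrays of a mouse usually gave close values. The median gap between them was 0.077 for Slc2a1, 0.08 for Egln3, 0.062 for Ero1a, 0.069 for Aldoa and 0.045 for Pgam1. The widest gap, 0.50, was that of Ero1a in mouse 5 of day 1. Both arrays set the mice apart that lay far from their groups. Day 5 mouse 4 gave 1.32 and 0.95 for Aldoa and -0.37 and -0.20 for Pgam1, and day 1 mouse 1 gave -0.22 and -0.37 for Egln3.

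**Figure D3:**
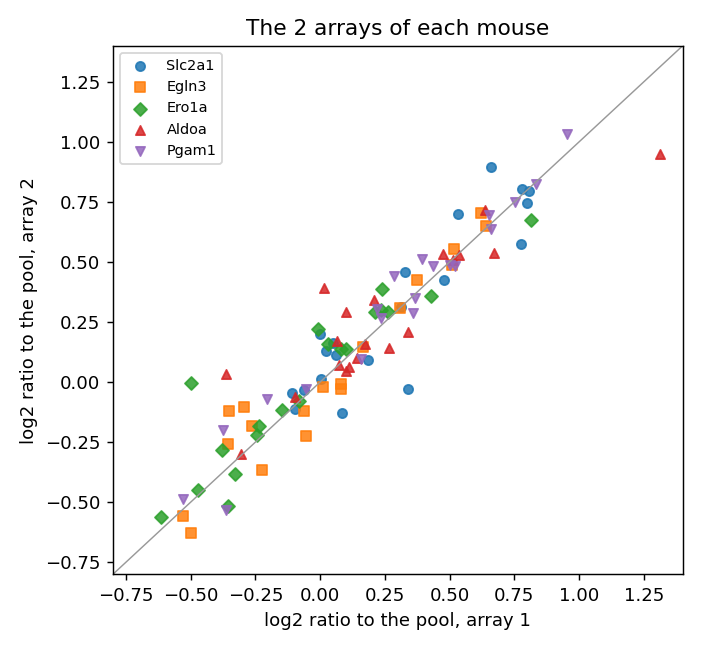
The log2 ratio to the pool on the second array of each mouse against that on the first, for the 5 genes. Points near the grey line are mice whose 2 arrays gave the same value, and most lie close to it.

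Of 19 other glycolytic enzyme genes, 5 were tested, and 0 of the 5 rose and 0 fell on day 1, day 2 or day 5. Over all genes and probes tested 19.1%, 19.2% and 2.62% were called on these days. A count of 0 in so short a list is near the share of all. With Aldoa and Pgam1 kept in the list, 0 of 7 rose and 1 (Pgam1) fell on day 1. The 5 others tested were the kinase genes Pfkm, Pgk1 and Pkm, the aldolase gene Aldoc, and Gapdh. All but Gapdh are named after their values were seen. Their median difference from control was -0.098, 0.039 and 0.14 for days 1, 2 and 5. Gapdh, the gene of the dehydrogenase that follows the aldolase steps, came closest, with -0.46 ± 0.23 on day 1 from 3 day 1 and 4 control mice (adjusted p = 0.174 by limma). Ldha, Tpi1 and Hk2 were measured in too few mice to be tested. Of 10 further genes of glucose and lactate transport, 4 were tested, and 1 was called against control, on days 1 and 5. It was Slc2a9, which encodes a transporter of urate. It fell by 0.47 ± 0.12 on the log2 scale on day 1 (adjusted p = 0.00958), stood at -0.05 ± 0.12 on day 2 and was higher by 0.48 ± 0.12 on day 5 (adjusted p = 0.0266). The day 5 call was lost in 10 of 34 other settings, among them without any 1 of control mice 1 to 4 or day 5 mice 1, 2 and 3 (adjusted p up to 0.1). Its mice were at -0.83, -0.68, -0.56, -0.65 and -0.86 on day 1 and at -0.21, -0.42, -0.24, -0.25 and -0.087 in control, with no overlap.

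Of 17 genes that control glycolysis and pyruvate use, 4 were tested, and 1 fell on day 1 while 1 rose on day 2, against 19.1% and 19.2% of all called in either direction. Mpc1, a subunit of the carrier that takes pyruvate into mitochondria, fell by 0.63 ± 0.12 on the log2 scale on day 1 (4 control mice, adjusted p = 0.00104 by limma). Its day 1 mice, at -0.45, -0.52, -0.38, -0.51 and -0.15, lay below all control mice, at 0.25, 0.26, 0.27 and 0.14. It was at -0.31 ± 0.12 on day 2 (adjusted p = 0.0603) and rose by 0.54 ± 0.11 from day 2 to day 5 (adjusted p = 0.000967). Pfkfb2, a kinase and phosphatase, sets the level of an activator of phosphofructokinase and is named after its values were seen. It rose on day 2 (0.49 ± 0.16, 4 control mice, adjusted p = 0.0324). It did not pass the F test over the 4 groups (adjusted p = 0.0556). Of 14 genes of glycogen and gluconeogenesis 7 were tested, and 0 rose and 1 fell on day 1, while 0 rose and 2 fell on day 2, again near the shares of all. From day 2 to day 5, 3 of the 7 rose and 0 fell, where 10.3% of all rose and 20.8% were called in either direction. Pck2, the mitochondrial form of phosphoenolpyruvate carboxykinase, fell by 0.37 ± 0.11 on the log2 scale on day 1 (adjusted p = 0.0212) and 0.38 ± 0.11 on day 2 (adjusted p = 0.0175), and rose by 0.33 ± 0.11 from day 2 to day 5 (adjusted p = 0.0338). Its day 1 call was lost in 7 of 34 other settings, among them without control mouse 1 or 4 or day 1 mouse 2 or 5 (adjusted p up to 0.0674 without a mouse). Its rise to day 5 was lost in 9 of 34, among them without day 2 mouse 1, 3 or 4 or day 5 mouse 1, 2 or 5 (adjusted p up to 0.075 without a mouse). Gbe1, the glycogen branching enzyme, fell by 0.34 ± 0.12 on the log2 scale on day 2 (adjusted p = 0.0432) and rose by 0.47 ± 0.12 from day 2 to day 5 (adjusted p = 0.00582). The day 2 call of Gbe1 was lost in 11 of 34 other settings, among them without control mouse 1, 2, 4 or 5, day 1 mouse 5 or day 2 mouse 1 or 3 (adjusted p up to 0.136). The third gene that rose from day 2 to day 5 was Fbp1, fructose bisphosphatase, named after its values were seen (0.66 ± 0.22, 4 mice in each group, adjusted p = 0.0406). Fbp1 did not pass the F test over the 4 groups (adjusted p = 0.125). None of the 8 pentose phosphate genes was measured in enough mice.

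Among 19 oxygen sensing genes other than Egln3, 5 were tested. Of these, 0 rose while 1 fell on day 1 and 0 did either on day 2, near the 19.1% and 19.2% of all that were called. With Egln3 kept in, 1 of 6 rose and 1 fell on day 1, and 1 rose on day 2. The gene that fell was Eloc, which encodes elongin C of the ligase that binds hydroxylated HIF (-0.51 ± 0.13, adjusted p = 0.00935 by limma). Hif1a and Egln2 are named after their values were seen. Hif1a was at 0.038, 0.02 and 0.12 on days 1, 2 and 5 (adjusted p = 0.883, 0.952 and 0.9), and the hydroxylase Egln2 was at -0.13, -0.12 and -0.15. HIF is controlled mainly through the stability of its protein, which arrays do not measure. Of 52 further genes known as hypoxia targets, 15 were tested. On day 1, 2 rose and 0 fell, and on day 2, 2 rose and 2 fell, and the median difference of the 15 was -0.11 and -0.047. Called in either direction were thus 2 and 4 of 15, near the 19.1% and 19.2% of all. This remainder leaves out the 5 genes, which were chosen with earlier results known, so its counts can lie below those of the whole list. With the 5 kept in, 4 of 20 rose and 2 fell on day 1, and 4 rose and 3 fell on day 2. Of the 15 others, the 2 that rose were the same on both days. Ddit4, an inhibitor of the growth kinase complex mTORC1 that is also a target of p53, rose by 1.28 ± 0.29 on day 1 (adjusted p = 0.00453) and 0.89 ± 0.29 on day 2 (adjusted p = 0.0339). The day 2 call was lost in 8 of 34 other settings, among them without control mouse 1, 3 or 4 or day 2 mouse 3, 4 or 5 (adjusted p up to 0.096). It varied widely, with day 1 mice at 0.50, -0.18, 1.27, 1.23 and 1.27 and day 2 mice at -0.52, 0.16, 0.57, 1.28 and 0.70. Stc2, a secreted glycoprotein, rose by 0.27 ± 0.089 on both days (adjusted p = 0.0363 and 0.0354). Its day 1 call was lost in 12 of 34 other settings, among them without any 1 of control mice 1 to 4 or day 1 mouse 2 or 3 (adjusted p up to 0.0977 without a mouse). Its day 2 call was lost in 11 of 34, among them without control mouse 1, 2 or 4 or day 2 mouse 1, 3, 4 or 5 (adjusted p up to 0.0833 without a mouse). The 2 that fell on day 2 were Gbe1, given above, and the chemokine receptor gene Cxcr4, named after its values were seen (-0.63 ± 0.205, adjusted p = 0.0333). Cxcr4 did not pass the F test over the 4 groups (adjusted p = 0.0701). On day 5, 0 of the 15 rose and 0 fell.

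Among partners of Ero1a in disulfide bond formation, 3 of 18 listed were tested, and 1 fell on day 1 and 1 rose on day 2, where 19.1% and 19.2% of all were called. By the F test over the 4 groups 3 of 3 were called, against 30.7% of all, and so short a list says little. The peroxiredoxin gene Prdx4, whose product oxidises disulfide isomerases as Ero1a does, fell by 0.62 ± 0.17 on the log2 scale on day 1 (adjusted p = 0.016 by limma) and was at -0.25 ± 0.17 on day 2 (adjusted p = 0.344). Day 1 mouse 2 was at 0.59 for Prdx4 where the other day 1 mice were at -0.66, -0.27, -0.42 and -0.48. The isomerase gene Pdia3 rose by 0.45 ± 0.13 on day 2 (adjusted p = 0.015). P4hb, the isomerase that Ero1a recharges, was at -0.21 ± 0.18 on day 1 and 0.19 ± 0.18 on day 2 (4 mice in each group, adjusted p = 0.438 and 0.49).

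**Figure D4:**
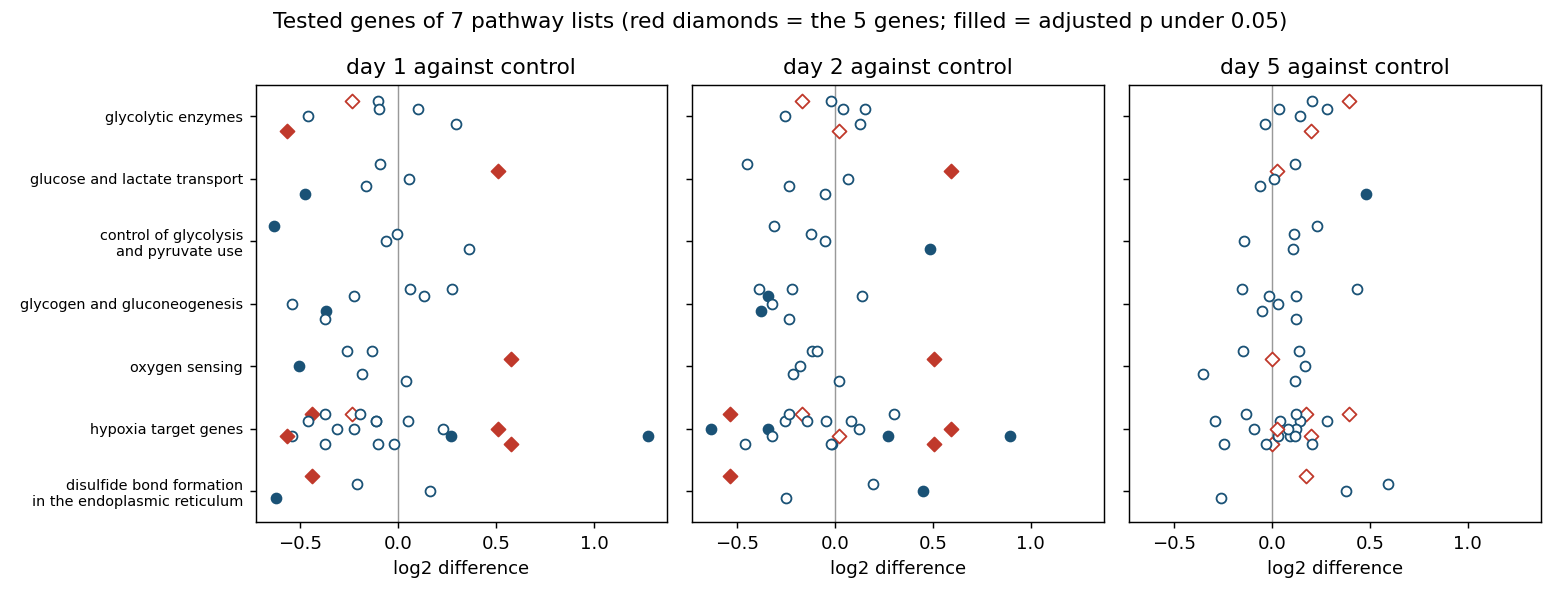
Log2 difference from control on days 1, 2 and 5 for every tested gene of 7 pathway lists; a gene can stand in several lists. Red diamonds are the 5 genes described and blue circles the others, filled where the adjusted p was under 0.05; most circles are open and lie on both sides of 0.

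The genes most like each of the 5 over mice were sought by Pearson's r over the mouse values of both, across all 4 groups, with at least 16 mice. Group differences enter this measure, as do array and dye effects that genes share, and it is a description. Slc2a1 was closest to Pcnx (r = 0.945 over 19 mice), Neurog1 (r = 0.944 over 20) and Mtmr9 (r = 0.943 over 20). Neurog1 encodes a transcription factor of neurons. Against control, its probe stood at 0.61 ± 0.13 on day 1 and 0.58 ± 0.13 on day 2 (adjusted p = 0.00336 and 0.00432 by limma). Day 5 against day 2 gave -0.62 ± 0.13 for it (adjusted p = 0.00169). A gene of neurons was thus called in the same comparisons and directions as Slc2a1. What the Neurog1 probe measures in marrow was not tested. Mtmr9, which encodes a relative of the myotubularin phosphatases, had its day 1 mice at 0.15, 0.60, 0.76, 0.22 and 0.49, so mice 1 and 4 were the lowest there as for Slc2a1. It rose by 0.51 ± 0.11 on day 1 (adjusted p = 0.0042 by limma) and 0.56 ± 0.11 on day 2 (adjusted p = 0.00164). Egln3 was closest to Nckap1 (r = 0.95 over 16 mice), Kcnab1 (r = 0.939 over 19) and Ptcd1 (r = 0.934 over 20). Nckap1 encodes a part of the WAVE complex of actin assembly, Kcnab1 a subunit of potassium channels and Ptcd1 a mitochondrial RNA-binding protein. Ero1a was closest to Cenpu (r = 0.929), Ethe1 (r = 0.911) and Gbe1 (r = 0.892), each over 20 mice. Cenpu, a protein of the centromere, and Ethe1, a mitochondrial sulfur dioxygenase, both fell on days 1 and 2, and by 0.45 ± 0.11 and 0.62 ± 0.13 on the log2 scale on day 2 (adjusted p = 0.00715 and 0.00279). The day 1 fall of Cenpu (adjusted p = 0.0294) was lost without control mouse 1, 2 or 5 or day 1 mouse 2, 3 or 5, and that of Ethe1 (adjusted p = 0.0241) without control mouse 1 or 3. Aldoa was closest to Plin3 (r = 0.87), Rab5if (r = 0.864) and Elovl1 (r = 0.863), each over 20 mice. Plin3, a coat protein of lipid droplets, shared its highest mouse with Aldoa, day 5 mouse 4, at 1.26. Pgam1 had the weakest likenesses, with Hnrnpm at r = 0.807 over 16 mice, Eif3j1 at 0.792 over 20 and Prps1 at 0.792 over 17. Hnrnpm, an RNA-binding protein, fell on day 1 (-0.62 ± 0.16, 3 day 1 and 4 control mice, adjusted p = 0.00976).

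Markers of other marrow cells moved over the same days, and their part in the changes of the 5 genes was not tested. Over all genes and probes tested, 10.7% rose and 8.38% fell on day 1, and 9.61% did each on day 2. On day 5, 0.906% rose and 1.72% fell, and from day 2 to day 5, 10.3% rose and 10.5% fell. In lists this short, 1 call on day 1 or day 2 is near these shares. Of 10 macrophage markers 5 were tested, and 2 rose on day 1 and 5 on day 2, when Slc2a1 and Egln3 were high. The mean over the 4 measured in every mouse was between -0.44 and 0.20 in control. On days 1, 2 and 5 it ran from 0.30 to 0.80, 0.80 to 1.27 and from -0.57 to -0.16. Of 6 endothelial markers 4 were tested, and 2 rose on day 1 and 3 on day 2. Their mean over 3 genes ran from -0.18 to -0.02 in control. On days 1, 2 and 5 it ran from 0.12 to 0.49, 0.18 to 0.52 and from -0.25 to 0.094. Of 8 stromal markers 2 were tested, and their mean ran from -0.39 to -0.082 in control. On days 1, 2 and 5 it ran from 0.31 to 1.02, 0.25 to 1.25 and from -0.70 to -0.17. Of 16 erythroid markers 9 were tested. On day 1, 1 rose and 1 fell, and on day 2, 0 rose and 4 fell. Ero1a was low on both days. The mean of the erythroid markers over 6 genes ran from -0.37 to -0.20 in control. On days 1, 2 and 5 it ran from -0.86 to -0.22, -0.98 to -0.69 and from -1.41 to -0.14. The lowest mouse, day 5 mouse 4, had the highest Ero1a value of all mice, at 0.74. Of 7 granulocyte precursor markers 2 were tested, and both fell on day 1. Pgam1 also fell then, as did 2 of 3 monocyte and 2 of 3 B cell markers. The granulocyte precursor marker measured in every mouse ran from 0.32 to 1.04 in control. On days 1, 2 and 5 it ran from -0.53 to 0.29, 0.15 to 0.78 and from 0.66 to 1.497. Of 13 late neutrophil markers 7 were tested, and 1 rose on day 1 and 4 fell on day 2, while 2 fell on day 5. Of 11 B cell markers 3 were tested, and 2 fell on day 1, 2 on day 2 and 3 on day 5. Of 7 monocyte markers 3 were tested, and 2 fell on day 1 and 1 on day 2, while 2 rose on day 5. Of 6 megakaryocyte markers 3 were tested, and 1 rose on day 1 and 2 on day 2. The 1 tested marker of T and NK cells was not called against control. From day 2 to day 5, when Slc2a1 and Egln3 fell and Ero1a and Aldoa rose, 5 of 5 macrophage, 3 of 4 endothelial and 2 of 2 stromal markers fell. Over the same days 4 late neutrophil markers rose and 1 fell, 3 erythroid markers rose and 1 fell, and 3 of 3 monocyte and 2 of 2 granulocyte precursor markers rose. The median difference of the 7 late neutrophil markers was 1.61. Of B cells and megakaryocytes 1 marker each fell then, and the T and NK cell marker rose. Some markers of each list except the endothelial one were blank on every array, 2 each of the erythroid, late neutrophil, macrophage and megakaryocyte lists among them.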

How the data were processed

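The authors' deposited table holds 1 log2 ratio per probe and array, of a mouse (Cy5) over the common reference (Cy3) per the labels. The sources used here do not give scanner, background correction, normalization or log base; with another base, folds would change and p values would not. Values ran from -4.8 to 2.67, array medians lay within 0.015 of 0, and 40.7% to 69.7% of an array's probes were blank. The lowest correlation among the 780 pairs of arrays was -0.175. Symbols came from the platform annotation, updated by gene number to RefSeq: 10032 probes had 1 symbol, 170 several and 3241 no entry. Arrays were averaged per mouse, then probes per symbol. No value was filled in. Group means were fitted with limma (version 3.58.1, R version 4.3.3) and moderated by eBayes, checked on simulated data. Exact permutation tests used scipy 1.17.1. Precision rests on at most 5 mice per group, and on 3 or 4 for some genes other than the 5. The limma p values thus measure spread between mice, shared over the 4 groups and moderated over genes. On 33 arrays a value was shared to within 0.001 by more probes than the density of values around it would give.

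The members and lists were chosen with earlier results of these data known. Counts of list genes other than the 5 leave out genes chosen this way, and so can lie below those of a whole list. Named are all 5 genes, up to 4 other genes per pathway list that passed the F test (otherwise the 1 with the smallest p), and the 3 genes most like each member over at least 16 mice. Alternatives varied probe averaging, apparent saturation, scaling, the filter, the replicate block, the arrays used, the moderation, weights, the groups fitted and the mice.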

Additional observations from a re-analysis of the deposited data

Results flagged for a closer look

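In 3 of the 20 gene and group combinations of the 5 genes, 1 mouse lay further from its nearest neighbour than Dixon's limit for 5 values (0.71 of the range of the group) allows. Chance alone passes this limit in about 1 of 20 groups. Aldoa in control mouse 3 was at 0.68, and the next control mouse was at 0.20. Aldoa in day 5 mouse 4 was at 1.13, and the next mouse was at 0.61. Pgam1 in day 5 mouse 4 was at -0.29, and the next mouse was at 0.67. The same day 5 mouse was thus the highest of its group for one glycolytic enzyme and the lowest for another.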

How the results depend on the processing

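Under the other processing choices and with each mouse left out in turn, all calls of the 5 genes by the F test held, and the number called was 3 to 4 on day 1, 2 to 3 on day 2 and 3 to 4 from day 2 to day 5. On day 5 against control it was 0 under all but array weights, which gave 2 (Aldoa and Pgam1). On day 2 against day 1 it was 0 to 1 with a mouse left out, 1 (Pgam1) under array weights and 1 in a fit of 40 arrays with the mouse as a random block. The genes behind a number could differ. Without day 5 mouse 4, 4 were called from day 2 to day 5, with Pgam1 (adjusted p = 0.0396 by limma) in place of Egln3 (adjusted p = 0.0697). Directions of calls never turned. Differences that were near 0 and not called changed sign. Slc2a1 on day 5 against control was -0.066 from technical replicate 1 arrays alone, and on day 2 against day 1 it was -0.059 under array weights. Egln3 on day 5 against control was 0.024 after quantile normalization, 0.016 with the spread of each array scaled, 0.0048 and 0.016 from technical replicate 1 or 2 arrays alone, 0.0013 with 40 arrays and 0.024 from mice with both arrays. Pgam1 on day 2 against control was -0.10 after quantile normalization and -0.077 with scaled spread. With a mouse left out, Slc2a1 ran from -0.0028 to 0.062 (day 5 against control) and from -0.023 to 0.15 (day 2 against day 1), Egln3 from -0.075 to 0.079 and from -0.23 to 0.011, Aldoa from -0.014 to 0.13 (day 2 against day 1) and Pgam1 from -0.047 to 0.084 (day 2 against control). The day 2 call of Egln3 was lost from technical replicate 2 arrays alone (0.51, adjusted p = 0.0585). Among the called differences of the other genes named by rule, 190 of 1681 alternative values missed the threshold and 0 reversed. The cause was not tested. The replicate numbers were not taken to pair the mice, since same-numbered mice of different groups did not all correlate above 0.1 in their deviations (-0.39 to 0.33, median -0.0023). As a hint from the data, 8 of 20 mice correlated best with a mouse of their own number, where 4 would if numbers did not matter. The replicate block left the numbers called at 4, 3, 0, 0 and 4.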
